A study of Canis lupus familiaris with 8 samples.

Results

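The pituitary of the stressed Beagle was compared with that of the unexposed Beagle by messenger RNA sequencing. One library was available on each side, 2 of the 8 libraries of a study that covered pituitary and adrenal cortex of Beagles and Chinese Field Dogs. The stressed library came from an adult Beagle group given chronic stress exposure. The unexposed library came from adult Beagles whose label says "non-disposal", read here as no stress. The labels name neither the stressor, its length, the sex of the dogs nor whether a library holds 1 dog or a pool. Their extraction note speaks of spleen, while titles and tissue labels give pituitary. With 1 library a side no test could be made, so each value below is a description of these libraries.

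The anterior pituitary holds hormone cells that each answer to a releasing or inhibiting factor from the hypothalamus. In stress, corticotropin-releasing hormone and vasopressin drive corticotrophs, which cut the POMC precursor into ACTH, and ACTH makes the adrenal cortex release cortisol. Cortisol acts back on the pituitary through the glucocorticoid receptor, which switches on genes such as SGK1, FKBP5, PER1 and TSC22D3 and restrains POMC. The posterior lobe is of neural origin and stores oxytocin and vasopressin made by hypothalamic neurons.

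The stressed library held 15756311 recovered reads and the unexposed library 14327357. Both carried the transcripts that define the pituitary. POMC, the ACTH precursor, stood at 26578 FPKM in the stressed library and 23764 FPKM in the unexposed one, where FPKM is a read count scaled to transcript length and library depth. Prolactin (PRL) stood at 31807 FPKM in the stressed library and 31611 FPKM in the unexposed one. Growth hormone (GH1) had 832085 reads in the stressed library, and its value in the unexposed library is a failed estimate listed at 0, so no ratio is given for it. The same holds for RRBP1, a ribosome-binding protein of the endoplasmic reticulum.

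Of 14364 genes with a mean of at least 1 FPKM, 179 (1.25%) were at least 2-fold higher and 157 (1.09%) at least 2-fold lower in the stressed library. Ratios are given as log2 of FPKM plus 1, stressed over unexposed, which understates the change of genes near 1 FPKM. The median over all measured genes was -0.003, and the 10th and 90th percentiles were -0.32 and 0.34. Of the called genes, 48 of the higher and 57 of the lower had fewer than 10 reads over both libraries. The 95% counting interval of the read ratio excluded equality for 121 of the higher and 98 of the lower genes. These intervals cover counting error only and say nothing of how dogs differ.

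The other pituitary pair gave a view of which Beagle library differed. A library was taken to stand apart at a gene when its level was at least 2-fold above, or at least 2-fold below, each of the other 3 pituitary libraries, 2 of which are from Chinese Field Dogs. The stressed Beagle library stood apart at 48 of the 179 higher genes and the unexposed one at 41. Among the 93 higher genes with at least 100 reads, the stressed library was apart at 9 and the unexposed one at 18. At the 157 lower genes the stressed library was apart at 20 and the unexposed one at 82, and at the 74 of them with at least 100 reads these counts were 7 for the stressed library and 41 for the unexposed one. For comparison, over the 14364 genes measured in the Beagle pair, the stressed Chinese Field Dog library was apart upward at 638 genes and the unexposed one at 10. That filter can leave out genes high in a Chinese Field Dog library alone, so counts of the 2 breeds are not on an equal footing. Breed and dog cannot be told apart in these counts.

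Among genes with at least 100 reads and a symbol used once, the 12 with the lowest ratios held signal-induced genes, secretory genes and a neural transcription factor. DUSP2, a nuclear phosphatase that switches off MAP kinases, had 1.32 FPKM in the stressed library and 22.4 FPKM in the unexposed library, a log2 ratio of -3.34 (34 and 560 reads, interval -4.64 to -3.59 for the read ratio). GADD45G, a growth-arrest gene induced by stress signals, had 6.56 FPKM in the stressed library and 44.3 FPKM in the unexposed one (-2.58). GEM, a small GTPase induced by depolarisation and growth factors, had 1.91 FPKM stressed and 14.7 FPKM unexposed (-2.43). The stressed and unexposed Chinese Field Dogs had 3.82 and 1.63 FPKM of DUSP2, 6.09 and 6.71 FPKM of GADD45G, and 1.86 and 1.51 FPKM of GEM, so that the high level of all 3 genes belonged to the unexposed Beagle.

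SGK1, a kinase induced by glucocorticoids and listed in the files as SGK (ENSCAFG00000000217, CanFam3.1 chromosome 1, 27085979 to 27196521), had 15.2 FPKM in the stressed library and 69.3 FPKM in the unexposed library. Its log2 ratio was -2.12, from 686 and 3346 reads. ERRFI1, a feedback inhibitor of the EGF receptor, had 9.73 FPKM stressed and 37.6 FPKM unexposed (-1.85). NEUROD4, a basic helix-loop-helix factor of pituitary and neural lineages, had 36.0 FPKM stressed and 140 FPKM unexposed (-1.94). The Chinese Field Dog libraries, stressed and unexposed, had 17.3 and 10.8 FPKM of SGK1, 8.99 and 8.02 FPKM of ERRFI1, and 30.0 and 27.5 FPKM of NEUROD4. The stressed Beagle lay near those values for all 3 genes. At 10 of these 12 genes the unexposed Beagle library was the one apart, and at TKTL1 and VMO1 the stressed library was. Genes without a symbol are outside this group. Of these, ENSCAFG00000003331 had a ratio of -3.11 (2 and 198 reads), and there the unexposed Beagle library was the one apart. ENSCAFG00000002237 (-2.89) and ENSCAFG00000002101 (-2.84) had ratios as low, and there the stressed library was the one apart.

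TKTL1, a transketolase-like protein, had 1.27 FPKM in the stressed Beagle and 8.48 FPKM in the unexposed Beagle, against 17.0 and 9.23 FPKM in the stressed and unexposed Chinese Field Dogs. VMO1, a homolog of an egg vitelline membrane protein, had 7.62 FPKM in the stressed and 29.8 FPKM in the unexposed Beagle, against 24.9 and 26.3 FPKM in the stressed and unexposed Chinese Field Dogs. GPR157, an orphan receptor, had 0.766 FPKM stressed and 7.11 FPKM unexposed (-2.20).

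**Figure D1:**
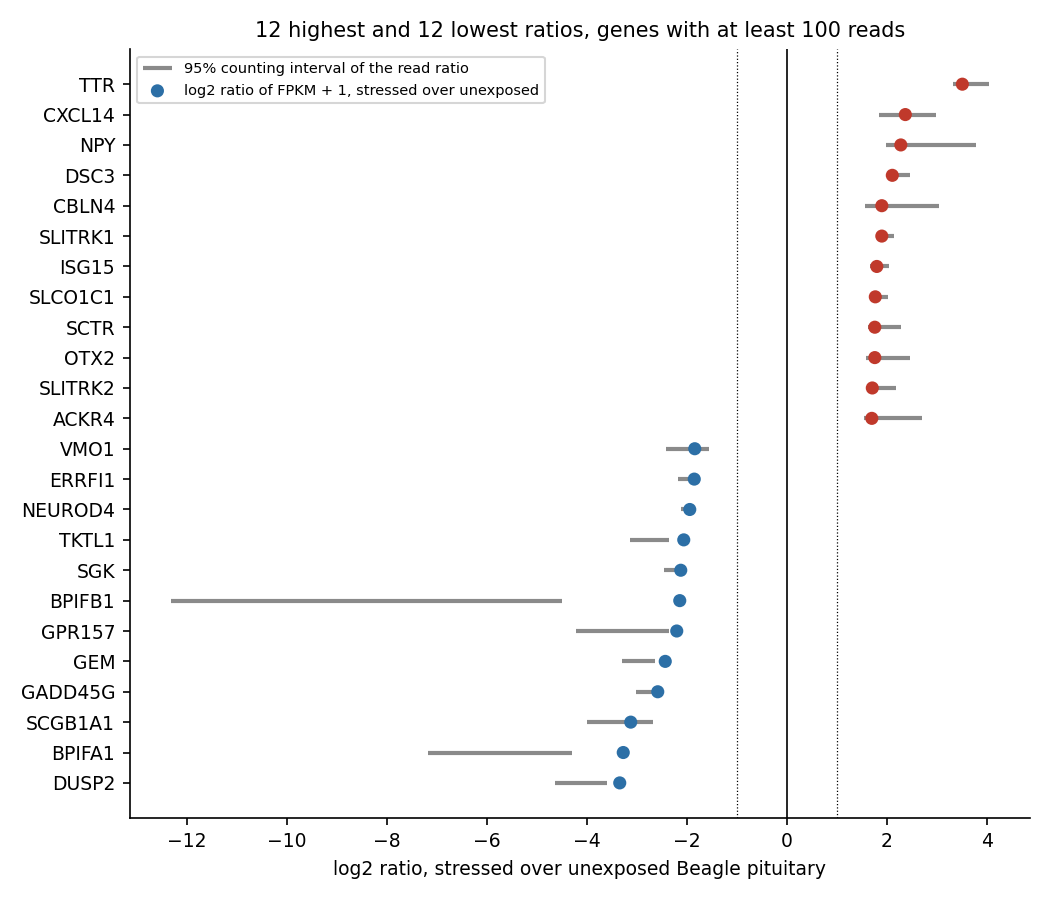
The 12 highest (top, red) and 12 lowest (bottom, blue) genes with at least 100 reads and a symbol used once. The x axis is the log2 ratio, stressed over unexposed Beagle pituitary. Points are ratios of FPKM plus 1, grey bars are 95% counting intervals of the read ratio, and dotted lines mark 2-fold. Points of low genes such as BPIFB1 lie nearer 0 than their bars because 1 FPKM was added; TTR has the highest ratio at 3.51 and DUSP2 the lowest at -3.34.

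Known glucocorticoid receptor targets were lower in the stressed library as a group. Of 19 measured targets, 17 were lower and 2 higher, with a median of -0.57, and 5 of the 19 (26.3%) fell at least 2-fold, against 1.09% of all genes. Besides SGK1 and ERRFI1, these were PDK4, the kinase that shuts off pyruvate dehydrogenase, with 35.3 FPKM stressed and 90.9 FPKM unexposed (-1.34), and DDIT4, an inhibitor of mTOR signalling, with 28 FPKM stressed and 63.3 FPKM unexposed (-1.15). The fifth, CDKN1A, a cell-cycle inhibitor named after its value was seen, was at the edge of the call with 7.51 FPKM stressed and 16.2 FPKM unexposed (-1.02).

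Targets that did not pass 2-fold still lay mostly on the lower side. PER1, a clock gene with a strong glucocorticoid response, had 36.7 FPKM in the stressed library and 70.8 FPKM in the unexposed library (-0.93). FKBP5, a chaperone that lowers receptor affinity, had 53.6 FPKM stressed and 80.3 FPKM unexposed (-0.57), and TSC22D3, which encodes the anti-inflammatory protein GILZ, had 22.1 FPKM stressed and 32.1 FPKM unexposed (-0.52). NR3C1, the receptor itself, had 25.9 FPKM stressed and 31.3 FPKM unexposed (-0.27). FKBP5, TSC22D3 and NR3C1 were named after their values were seen.

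The summed level of the 19 targets was 626 FPKM in the stressed Beagle and 1031 FPKM in the unexposed Beagle, against 573 FPKM in the stressed and 534 FPKM in the unexposed Chinese Field Dog. The unexposed Beagle thus held the one high sum of 4. In the Chinese Field Dog pair 8 targets were higher and 11 lower, with a median of -0.08. Set against the unexposed Chinese Field Dog in place of the unexposed Beagle, 68.4% of the targets were higher in the stressed Beagle, against 10.5% within the breed, so the direction depended on which unexposed library was used. The Beagle adrenal cortex, from separate libraries, had 8 targets higher and 11 lower, with a median of -0.11.

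Immediate-early and other signal-induced genes were measured at 34 of 38 matched members. In the stressed library 24 of the 34 were lower and 10 higher, with a median of -0.38, and 9 (26.5%) fell at least 2-fold, against 1.09% of all genes. NR4A1, an orphan nuclear receptor induced by corticotropin-releasing hormone in corticotrophs, had 32.2 FPKM stressed and 108 FPKM unexposed (-1.71). SIK1, a kinase that restrains CREB signalling, had 8.34 FPKM stressed and 30.6 FPKM unexposed (-1.76). DUSP2 and GADD45G belong here too. The other 5, named after their values were seen, were NR4A2 (-1.59), TRIB1 (-1.37), FOSL2 (-1.13), GADD45B (-1.09) and EGR1 (-1.03).

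The list did not move as a block. FOS, the classic immediate-early factor, had 71.8 FPKM in the stressed library and 49.9 FPKM in the unexposed one (0.52). JUN, its partner in AP-1, had 759 reads stressed and 622 reads unexposed (0.24). DUSP1, both an immediate-early gene and a glucocorticoid target, had 28.6 FPKM stressed and 32.4 FPKM unexposed (-0.18). These 3 were also named after their values were seen.

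The unexposed Beagle library was apart from the other 3 pituitary libraries at 7 of the 34 genes, and the stressed Beagle library at 0. Over all 14364 measured genes, the unexposed Beagle library was apart upward at 82 and downward at 41. The stressed Beagle library was apart upward at 48 and downward at 20. In the Chinese Field Dog pair 19 of 33 were higher under stress, with a median of 0.10 and 1 gene 2-fold lower. Set against the unexposed Chinese Field Dog, 56.2% of 32 measured members were higher in the stressed Beagle, against 29.4% of 34 within the breed. In the Beagle adrenal cortex the median was 0.05, but SIK1 (-2.34) and NR4A1 (-1.31) were again lower in the stressed library, as was GEM (-2.59).

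Heat-shock chaperones, mostly cytosolic ones that fold proteins under the control of HSF1, were lower in the stressed library at 17 of 17 measured members. None of the 17 passed 2-fold, and the ratios ran between -0.66 and -0.04 with a median of -0.33. HSPB1, a small chaperone, had 232 FPKM stressed and 366 FPKM unexposed (-0.66), and HSPH1, a nucleotide exchange factor for HSP70, had 53.7 FPKM stressed and 80.0 FPKM unexposed (-0.57). HSPA1, an inducible HSP70 whose near-identical copies can share reads, had 129 FPKM stressed and 188 FPKM unexposed (-0.55). The same list was lower at 17 of 17 members in the stressed Beagle adrenal cortex, with a median of -0.46, but higher at 14 of 17 in the stressed Chinese Field Dog pituitary, with a median of 0.19. Against the unexposed Chinese Field Dog, 35.3% of the chaperones were higher in the stressed Beagle.

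The endoplasmic-reticulum stress list had no common direction, with 11 of 21 members higher and 10 lower and a median of 0.00. CHAC1, a glutathione-degrading enzyme induced by ATF4, was its 1 call (4.76%, against 1.09% of all genes). CHAC1 had 12.5 FPKM stressed and 33.1 FPKM unexposed (-1.34).

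**Figure D2:**
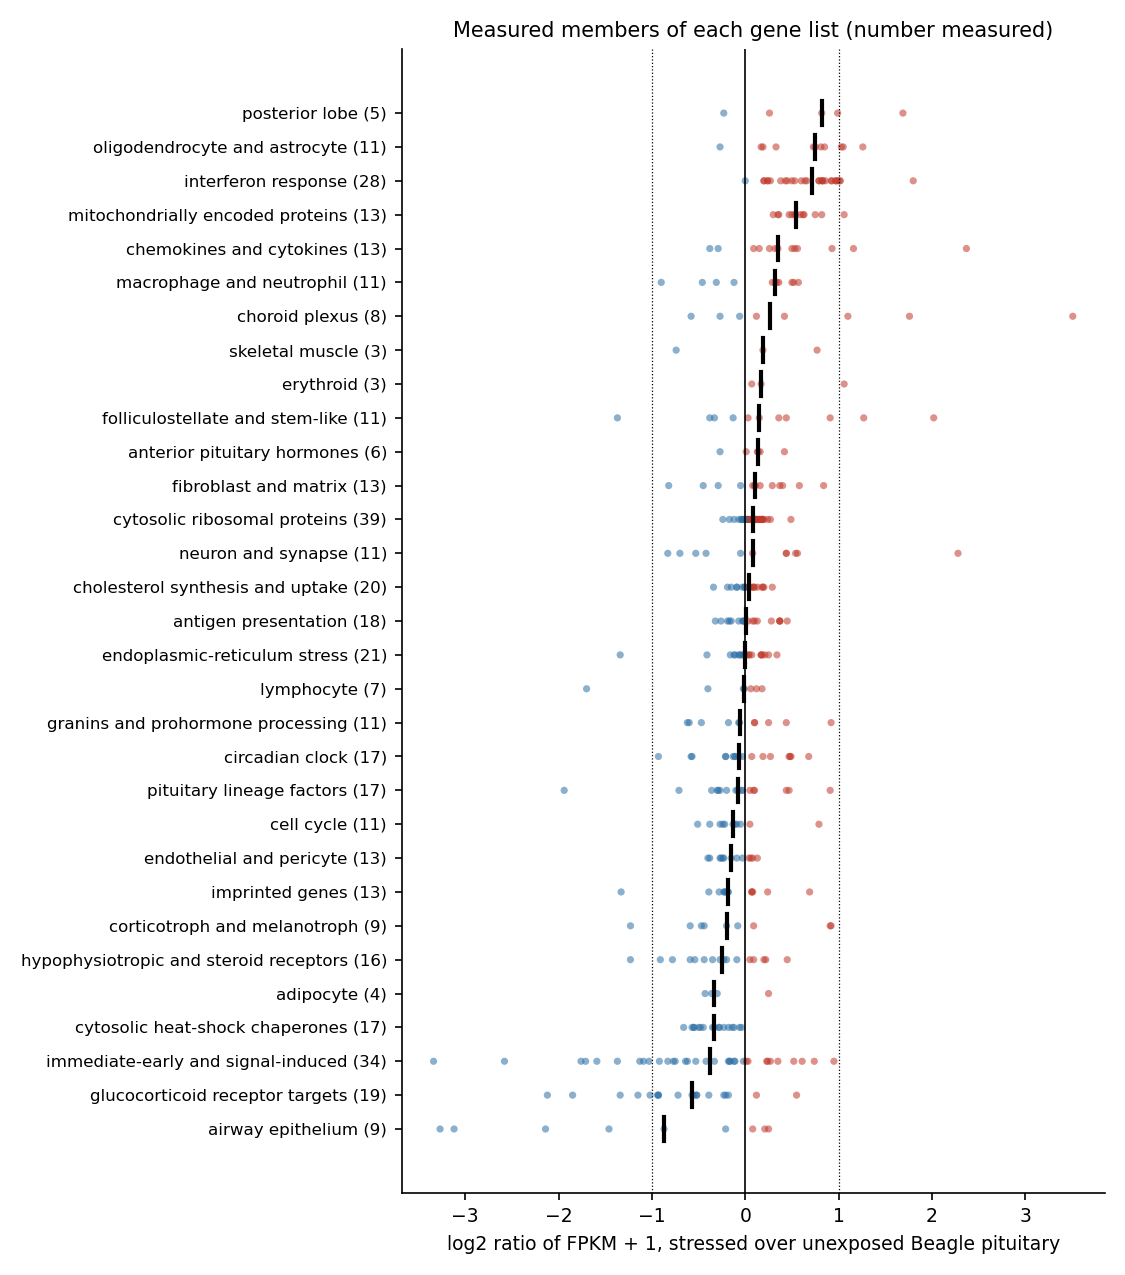
Log2 ratios of the measured members of the gene lists, stressed over unexposed Beagle pituitary, 1 point a gene (red above 0, blue below), with list medians as black bars and the 2-fold limits as dotted lines. Heat-shock chaperones lie wholly below 0 (17 of 17), interferon genes almost wholly above it (27 of 28), and glucocorticoid targets mostly below it (17 of 19).

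Interferon-response genes were higher in the stressed library. Of 28 measured members 27 had a higher value and 1, IFIH1, an RNA sensor, was level at 8.44 FPKM stressed and 8.45 FPKM unexposed. The median was 0.72, and 3 genes (10.7%) rose at least 2-fold, against 1.25% of all genes. ISG15, a ubiquitin-like modifier, had 56.2 FPKM stressed and 15.5 FPKM unexposed (1.80), from 993 and 265 reads. IFIT1, which binds viral RNA, had 3.61 FPKM stressed and 1.29 FPKM unexposed (1.01), and CMPK2, a mitochondrial nucleotide kinase named after its value was seen, had 3.59 FPKM stressed and 1.26 FPKM unexposed (1.02).

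Other members lay under 2-fold. OAS2, which makes the activator of RNase L, had 25.4 FPKM stressed and 12.4 FPKM unexposed (0.97). IFI44 had 42.1 FPKM stressed and 20.7 FPKM unexposed (0.99), but its annotated span coincides with that of IFI44L, so reads of the pair cannot be assigned with certainty. In the Chinese Field Dog pair 28 of 28 of these genes were higher under stress, with 4 at least 2-fold and a median of 0.48, and in the Beagle adrenal cortex 23 of 28 were higher with a median of 0.18. Each pair had its own libraries, and no test of a shared direction was made.

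The interferon genes summed to 779 FPKM in the stressed Beagle and 500 FPKM in the unexposed Beagle, and to 1049 FPKM in the stressed and 739 FPKM in the unexposed Chinese Field Dog. The unexposed Beagle had the lowest sum, and the stressed Beagle lay close to the unexposed Chinese Field Dog. Against that library 72.4% of 29 measured genes were higher in the stressed Beagle, compared with 96.4% of 28 within the breed. Antigen-presentation genes, many of them also inducible by interferon, were split at 9 higher and 9 lower with a median of 0.01. Macrophage and neutrophil markers were higher at 7 of 11 with a median of 0.32 and no call, and the part of such cells in the interferon result was not tested.

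Among genes with at least 100 reads and a symbol used once, the highest ratio was that of TTR (ENSCAFG00000018046, CanFam3.1 chromosome 7, 57940278 to 57947136), which encodes transthyretin, the carrier of thyroxine and retinol. TTR had 86.3 FPKM in the stressed library and 6.69 FPKM in the unexposed library, a log2 ratio of 3.51 from 956 and 72 reads (interval 3.33 to 4.04). The Chinese Field Dogs had 6.57 FPKM stressed and 9.26 FPKM unexposed, so that the stressed Beagle held the one high value of 4. TTR was the only one of the 12 genes with the highest ratios at which the stressed Beagle stood apart. The unexposed Beagle stood apart at 4 of them (CXCL14, NPY, ISG15 and SLITRK2), and neither at 7.

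TTR is abundant in choroid plexus, the tissue that makes cerebrospinal fluid, so markers of that tissue were examined. Of 8 measured markers 5 were higher and 3 lower, with a median of 0.27, and the list summed to 190 FPKM in the stressed and 108 FPKM in the unexposed Beagle. TTR, OTX2 and ENPP2 (37.5% of the list) rose at least 2-fold, against 1.25% of all genes. TTR, the gene that led to this list, is among them, so the share is not independent of its ratio. It made up 86.3 FPKM of the stressed sum and 6.69 FPKM of the unexposed sum. OTX2, a homeobox factor of the forebrain, had 14.4 FPKM stressed and 3.53 FPKM unexposed (1.76), and ENPP2, the enzyme autotaxin, had 8.39 FPKM stressed and 3.38 FPKM unexposed (1.10). KCNJ13, a potassium channel typical of choroid plexus, was low in both libraries at 0.351 FPKM stressed and 0.272 FPKM unexposed, and SLC4A5, a bicarbonate transporter, at 0.498 FPKM stressed and 0.571 FPKM unexposed. The part of choroid plexus in the TTR result was not tested.

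Transcripts of the posterior lobe were also higher. OXT, the oxytocin precursor, had 69.8 FPKM in the stressed library and 21.0 FPKM in the unexposed library (1.69, from 259 and 77 reads). AVP, the vasopressin precursor, had 37.1 FPKM stressed and 20.6 FPKM unexposed (0.82), and RAX, a homeobox factor of pituicytes, the glia of the posterior lobe, had 6.28 FPKM stressed and 2.67 FPKM unexposed (0.99). The 5 measured markers had a median of 0.82, with 4 higher and 1 (20.0%, against 1.25% of all genes) at least 2-fold higher. Their sum was 123 FPKM in the stressed and 53.5 FPKM in the unexposed Beagle, against 92.7 FPKM in the stressed and 115 FPKM in the unexposed Chinese Field Dog. In bulk tissue a different amount of posterior lobe and a different amount of RNA per cell cannot be told apart.

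Glial genes were higher with them. Oligodendrocyte and astrocyte markers were higher at 10 of 11, with 3 at least 2-fold (27.3%, against 1.25% of all genes), a median of 0.75 and a sum of 151 FPKM in the stressed and 100 FPKM in the unexposed Beagle. OLIG1, an oligodendrocyte factor, had 6.13 FPKM stressed and 1.98 FPKM unexposed (1.26), and the glutamate transporter SLC1A3, listed as GLAST, had 8.83 FPKM stressed and 3.75 FPKM unexposed (1.05). Neuron markers were split at 6 higher and 5 lower with a median of 0.08, and the cortical factors NEUROD6 and TBR1 had 0 reads in both Beagle libraries. A count of 0 allows up to 3 reads. Against the unexposed Chinese Field Dog, 41.7% of 12 measured oligodendrocyte and astrocyte markers were higher in the stressed Beagle, compared with 90.9% of 11 within the breed.

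**Figure D3:**
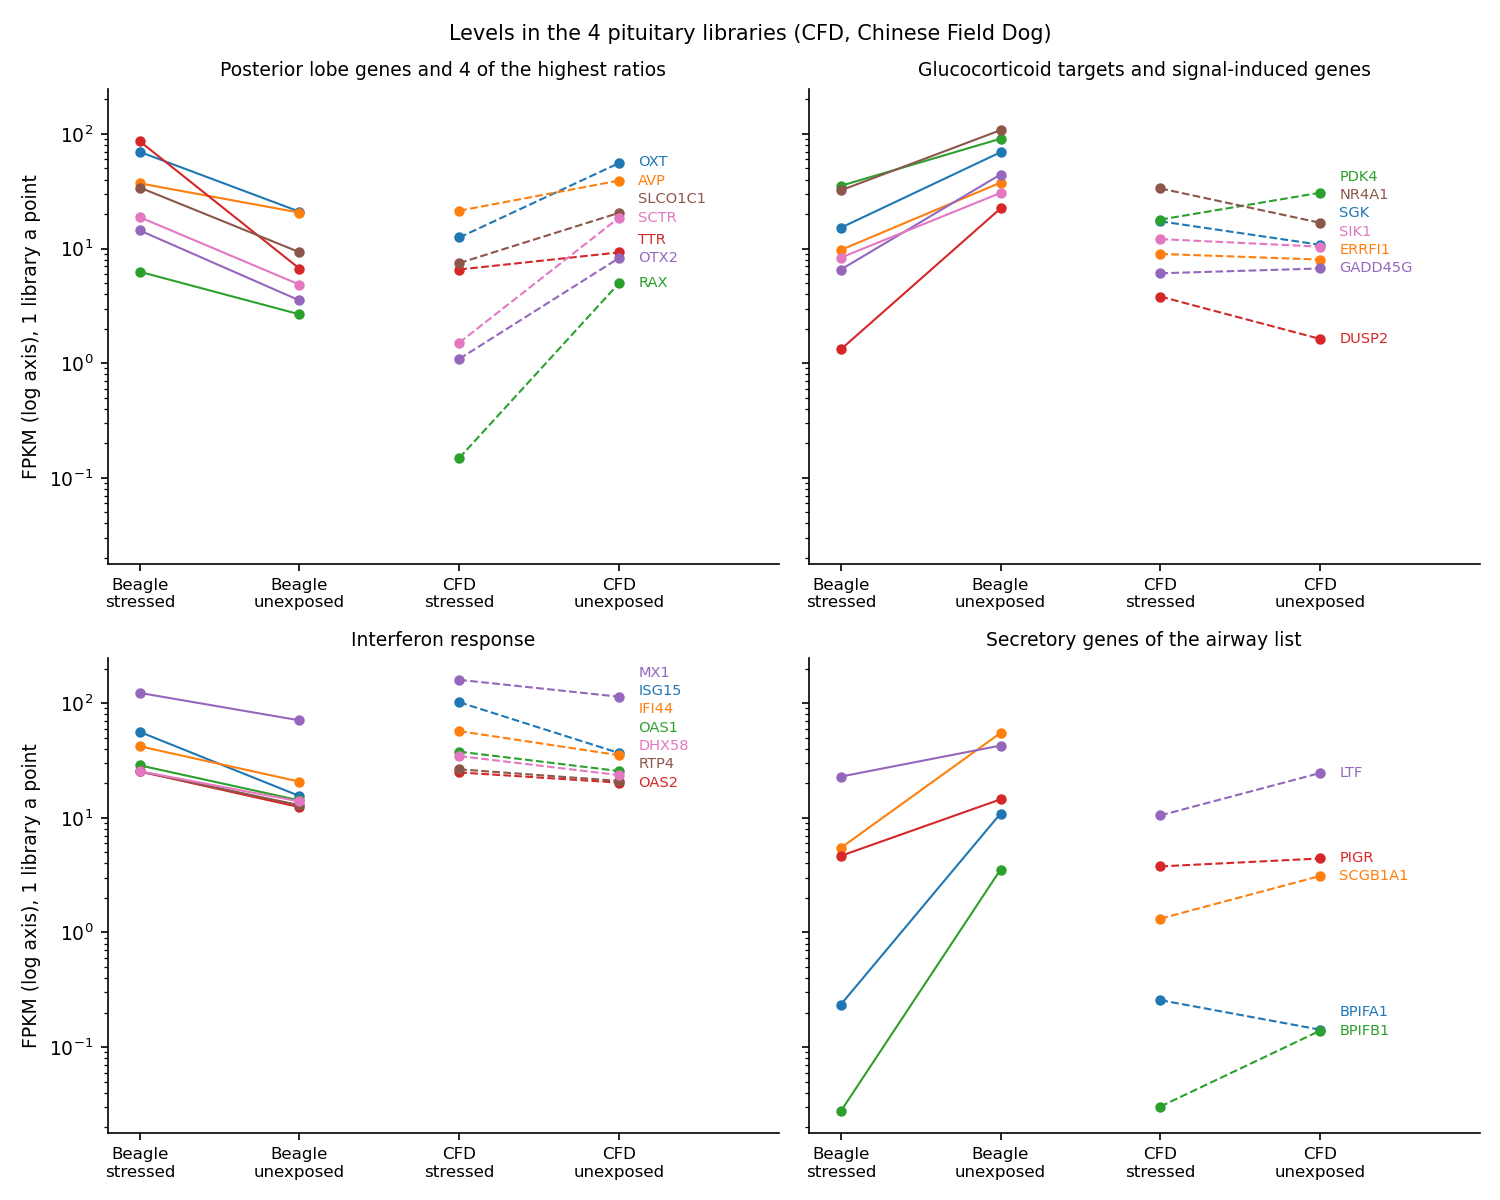
FPKM (log axis) of selected genes in the 4 pituitary libraries, stressed left of unexposed in each breed, 1 library a point. Solid lines join the Beagle libraries and dashed lines those of the Chinese Field Dog (CFD). SGK1 (listed as SGK) is high in the unexposed Beagle alone, at 69.3 FPKM, and TTR in the stressed Beagle alone, at 86.3 FPKM.

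The other genes among the 12 highest ratios encode secreted, adhesion and receptor proteins. CXCL14, a chemokine made by epithelia and neurons, had 70.4 FPKM in the stressed Beagle and 12.8 FPKM in the unexposed one (2.37). NPY, the neuropeptide Y precursor, had 11.8 FPKM stressed and 1.64 FPKM unexposed (2.28, from 96 and 13 reads). SLITRK1, a synaptic adhesion protein, had 47.2 FPKM stressed and 11.9 FPKM unexposed (1.9), and SLITRK2, of the same family, had 15.9 FPKM stressed and 4.15 FPKM unexposed (1.71). CBLN4, a secreted synapse organiser, had 11.7 FPKM stressed and 2.40 FPKM unexposed (1.9), from 100 and 20 reads. ACKR4, a decoy receptor for chemokines, had 9.07 FPKM stressed and 2.11 FPKM unexposed (1.70).

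A further group combined a high ratio in the Beagle with a low one in the Chinese Field Dog. DSC3, a desmosomal cadherin, had 30.0 FPKM in the stressed and 6.19 FPKM in the unexposed Beagle (2.11), against 3.22 FPKM in the stressed and 16.2 FPKM in the unexposed Chinese Field Dog (-2.02). SCTR, the secretin receptor, had 18.8 FPKM in the stressed and 4.85 FPKM in the unexposed Beagle (1.76), against 1.51 FPKM in the stressed and 18.6 FPKM in the unexposed Chinese Field Dog (-2.96). SLCO1C1, a thyroxine transporter of the brain barrier, had 34.1 FPKM in the stressed and 9.30 FPKM in the unexposed Beagle (1.77), against 7.47 FPKM in the stressed and 20.5 FPKM in the unexposed Chinese Field Dog (-1.34). For DSC3, SCTR and SLCO1C1, as for OXT, OTX2 and RAX, the order of the 4 libraries placed the stressed Beagle highest, then the unexposed Chinese Field Dog, then the unexposed Beagle, and the stressed Chinese Field Dog lowest.

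The hormone genes themselves lay within 2-fold. Of 6 measured, 5 were higher and 1 lower, 0 passed 2-fold, and the median was 0.14. CGA, the subunit shared by the glycoprotein hormones, had 22898 FPKM stressed and 17056 FPKM unexposed (0.42). LHB, of luteinizing hormone, had 9154 FPKM stressed and 8286 FPKM unexposed (0.14), and FSHB, of follicle-stimulating hormone, had 281 FPKM stressed and 337 FPKM unexposed (-0.27). TSHB, of thyrotropin, had 892 FPKM stressed and 813 FPKM unexposed (0.13). The POMC and PRL ratios were 0.16 and 0.01. In the Chinese Field Dog pair 6 of 6 were lower under stress, with a median of -0.77 and POMC at -1.58.

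Of 9 measured genes of the POMC cells, corticotrophs and melanotrophs, 3 were higher and 6 lower, with a median of -0.20. Their 1 call, a lower one, was 11.1% of the list, against 1.09% of all genes. Against the unexposed Chinese Field Dog, 77.8% of the 9 genes were higher in the stressed Beagle, compared with 33.3% within the breed. AVPR1B, the vasopressin receptor of corticotrophs, fell to 1.56 FPKM in the stressed library, against 4.99 FPKM in the unexposed one (-1.23), from 31 and 96 reads. CRHR1, the receptor for corticotropin-releasing hormone, had 38.0 FPKM stressed and 43.7 FPKM unexposed (-0.20), and TBX19, the factor of both POMC lineages, had 134 FPKM stressed and 142 FPKM unexposed (-0.08); both were named after their values were seen. PAX7, the factor that specifies melanotrophs of the intermediate lobe, had 10.1 FPKM stressed and 4.93 FPKM unexposed (0.91), and PCSK2, the convertase that makes α-MSH there, had 60.4 FPKM stressed and 31.5 FPKM unexposed (0.92). Neither of the melanotroph genes passed 2-fold, although PAX7 did with 0.1 FPKM added in place of 1 (1.02).

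Receptors on the other hormone cells were mostly on the lower side, at 11 of 16 with a median of -0.25. GHRHR, the growth hormone-releasing hormone receptor, had 38.5 FPKM stressed and 73.4 FPKM unexposed (-0.91), and GHSR, the ghrelin receptor, had 22.1 FPKM stressed and 38.7 FPKM unexposed (-0.78). Lineage factors were lower at 11 of 17 with a median of -0.08, and NEUROD4 was their 1 call (5.88%, against 1.09% of all genes). Granins and prohormone enzymes were split at 5 higher and 6 lower, with CHGA, a core granule protein, at 290 FPKM stressed and 440 FPKM unexposed (-0.60).

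Secretory genes typical of airway and glandular epithelium fell. SCGB1A1, the club cell secretory protein, had 5.47 FPKM in the stressed library and 55 FPKM in the unexposed library (-3.12, from 23 and 219 reads). BPIFA1, an antimicrobial protein of the upper airway, had 0.235 FPKM stressed and 10.9 FPKM unexposed (-3.27, from 5 and 224 reads), and its relative BPIFB1 had 0.0276 FPKM stressed and 3.54 FPKM unexposed (-2.14, from 1 and 124 reads, interval -12.32 to -4.50 for the read ratio). PIGR, which carries immunoglobulins across epithelia, had 4.66 FPKM stressed and 14.5 FPKM unexposed (-1.46). In each Chinese Field Dog library all 4 were lower than in the unexposed Beagle, with SCGB1A1 at 1.32 FPKM stressed and 3.11 FPKM unexposed and BPIFB1 at 0.0303 FPKM stressed and 0.139 FPKM unexposed.

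The 9 measured airway markers had a median of -0.87, with 6 lower and 3 higher. Of the 9, 4 (44.4%) fell at least 2-fold, against 1.09% of all genes. SCGB1A1, BPIFA1 and BPIFB1 were also among the 12 lowest ratios, so this share is not independent of that choice. Only 7 of the 9 had at least 1 FPKM in both libraries. BPIFA1 and BPIFB1 passed the filter through the unexposed library alone. The 9 markers summed to 318 FPKM in the stressed and 451 FPKM in the unexposed Beagle. Against the unexposed Chinese Field Dog, 71.4% of 7 measured markers were higher in the stressed Beagle, compared with 33.3% of 9 within the breed. BPIFA1 and BPIFB1 did not pass the filter in the former comparison, so the 2 shares are not over the same genes. Not every member of the list followed the secretory genes. FOXJ1, the factor of ciliated cells, had 2.50 FPKM stressed and 2.32 FPKM unexposed (0.08), and EPCAM, an adhesion protein also expressed in the pituitary, had 270 FPKM stressed and 313 FPKM unexposed (-0.21). MUC5AC, a gel-forming mucin, was under the 1 FPKM mean but had 1 read in the stressed and 301 reads in the unexposed library. FOXJ1, EPCAM and MUC5AC were named after their values were seen. The part of epithelium from outside the pituitary in these differences was not tested.

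Stem-like and folliculostellate markers were mixed, with 7 of 11 higher and 4 lower and a median of 0.15. Of the 11, 2 (18.2%) rose and 1 (9.09%) fell at least 2-fold, against 1.25% and 1.09% of all genes. Their sum was 672 FPKM in the stressed and 754 FPKM in the unexposed Beagle. ALDH1A1, among the lower members, had 289 FPKM stressed and 378 FPKM unexposed (-0.38). SOX2, the factor of pituitary stem cells, had 64.5 FPKM stressed and 47.3 FPKM unexposed (0.44), SOX9, its partner, had 9.44 FPKM stressed and 4.57 FPKM unexposed (0.91), and RSPO3, a Wnt amplifier, rose to 6.20 FPKM in the stressed library, against 1.98 FPKM in the unexposed one (1.27). DLK1, an imprinted Notch-family gene found in somatotrophs, fell to 7.14 FPKM in the stressed library, against 19.4 FPKM in the unexposed one (-1.33), and in the Chinese Field Dog pair it had 3.74 FPKM stressed and 16 FPKM unexposed (-1.84).

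Protein-coding transcripts of the mitochondrial genome were higher at 13 of 13 genes, with a median of 0.54 and 1 call (7.69%, against 1.25% of all genes). The call was MT-ND2, a subunit of complex I, at 1391 FPKM stressed and 665 FPKM unexposed (1.06). All genes on the mitochondrial chromosome, these 13 and the others, took 5.41% of the recovered reads in the stressed library and 3.96% in the unexposed library. Without the 2 genes of failed estimate, these shares were 5.72% and 3.96%. The same 13 genes were higher under stress in the Chinese Field Dog pituitary (median 0.89) and in the Beagle adrenal cortex (median 0.52). Cytosolic ribosomal protein genes were higher at 30 of 39 with a median of 0.08.

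The 2-fold differences recurred in part in the other breed, and in part lay the other way. Of the 179 genes higher in the stressed Beagle, 150 were measured in the Chinese Field Dog pituitary, where 33 were 2-fold higher under stress and 43 were 2-fold lower. Those 33 are 18.4% of the 179, measured there or not, and 2.86% of the 1155 that were 2-fold higher in the Chinese Field Dog. Of all genes measured in that pair, 7.85% were 2-fold higher and 1.7% were 2-fold lower. At any size of ratio, 67 of the 150 were higher under stress there. Of the 157 lower genes, 109 were measured there, 13 were 2-fold lower and 17 were 2-fold higher. Those 13 are 8.28% of the 157, measured there or not, and 5.2% of the 250 in the Chinese Field Dog, where 1.7% passed. At any size of ratio, 49 of the 109 were lower under stress there. The stressed Chinese Field Dog library held far more RNA of neuron markers, 1710 FPKM against 182 FPKM in its unexposed partner, while the same markers summed to 190 FPKM in the stressed and 202 FPKM in the unexposed Beagle. Its part in these counts was not tested. In the Beagle adrenal cortex 115 of the higher genes were measured, of which 18 were 2-fold higher under stress and 10 were 2-fold lower, where 0.83% and 2.45% of all measured genes passed in these directions. Of the lower genes 80 were measured there, with 17 at least 2-fold lower and 7 at least 2-fold higher.

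**Figure D4:**
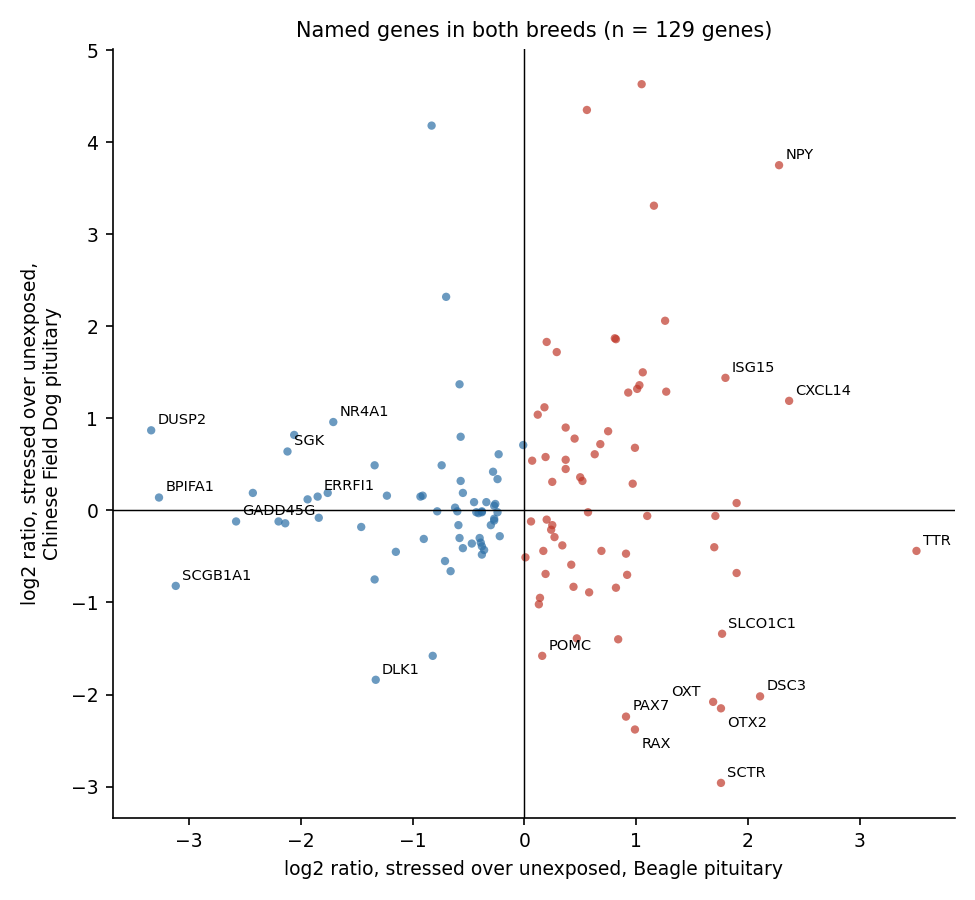
Log2 ratios of 129 named genes, stressed over unexposed, in Beagle pituitary (x axis) and Chinese Field Dog pituitary (y axis), 1 point a gene, red where the Beagle ratio is above 0 and blue where it is below. DSC3, OTX2, OXT, SCTR and SLCO1C1 lie at the lower right, past 2-fold in opposite directions, while ISG15 and CXCL14 are above 1 on both axes.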

How the data were processed

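Libraries came from an Illumina TruSeq kit, per the labels. Per the submitters' processing notes, reads were aligned with TopHat (version not stated) and the build was CanFam3.1. The counting program and annotation are not given in the sources used here. The authors' deposited tables hold FPKM and a scaled count, a signal per gene, for 24580 genes, of which 18986 have a symbol. Each deposited signal column was divided by the commonest of its values near 1, taken as the worth of 1 read (0.923 stressed, 0.957 unexposed). This gave reads that were whole within 0.02 for 99.1% of values. The columns of all 4 pituitary libraries were identical in both tables that held them, so their FPKM were compared across tables.

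No count test or other test was possible, since 1 library a side leaves no residual degrees of freedom. Log2 ratios used FPKM plus 1, over genes with a mean of at least 1 FPKM, without the 2 failed estimates. A call is a log2 ratio of 1 or more in size. Intervals are 95% Clopper-Pearson intervals on recovered reads. The tools were pandas 2.3.3 and scipy 1.17.1, in scripts checked on simulated data. Named genes are the 12 highest and 12 lowest ratios with at least 100 reads and a symbol used once, the hormone genes, and the 4 largest ratios in each of 31 lists; exceptions are marked. The members and lists were chosen with earlier results of these data known. The authors' own ratios and tests were not used. Alternatives varied the pseudocount, filter, scale, centring, threshold and unexposed library. Promoter motifs were not analysed here. Some members of the lists are not reported here by name.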

Additional observations from a re-analysis of the deposited data

Results flagged for a closer look

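Of the 43 genes that were 2-fold higher under stress in Beagle pituitary and 2-fold lower under stress in Chinese Field Dog pituitary, 5 are among the named genes. The log2 ratios of the Beagle came to 2.11 for DSC3, 1.77 for SLCO1C1, 1.76 for SCTR, 1.76 for OTX2 and 1.69 for OXT. Those of the Chinese Field Dog came to -2.02 for DSC3, -1.34 for SLCO1C1, -2.96 for SCTR, -2.15 for OTX2 and -2.08 for OXT. With 1 library a group, the difference between breeds was not tested.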

How the results depend on the processing

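The count of 2-fold higher genes, 179, became 312 with 0.1 FPKM added, 106 with at least 50 reads required and 571 at 1.5-fold; that of lower genes, 157, became 86 with at least 50 reads and 445 at 1.5-fold. Without the filter, on scaled counts or centred on the median, both counts stayed within 1.5 times. Of the 129 named genes with a ratio, 129 kept their direction with 0.1 FPKM added or after centring and 128 on scaled counts; 122 kept their side of 2-fold with 0.1 FPKM or on scaled counts, and 129 after centring. RAX, PAX7, SOX9, OAS2, IFI44, CCL2 and SST were those that crossed it. After centring, 100% of the interferon genes were higher (96.4% without). The next 2 alternatives were chosen after seeing the data. Keeping the failed estimates gave 181 higher and 157 lower genes. Putting the unexposed Chinese Field Dog in place of the unexposed Beagle gave 127 higher and 202 lower genes, and 61 of the 179 and 32 of the 157 were at least 2-fold different from that library in the same direction. It moved the share of members higher to 77.8% for corticotroph and melanotroph genes, 68.4% for glucocorticoid targets, 56.2% for immediate-early genes, 35.3% for heat-shock chaperones, 72.4% for interferon genes, 5.56% for antigen presentation, 46.2% for chemokines, 70.6% for clock genes, 41.7% for oligodendrocyte and astrocyte, 71.4% for airway, 23.1% for fibroblast, 0.00% for macrophage and lymphocyte and 94.9% for ribosomal protein genes; breed changes with that library and the cause was not tested. The filter was remade with the unexposed Chinese Field Dog library, so the measured members of some lists differed from those within the breed. No paired analysis was possible because each group has 1 library, and no replicate could be left out. Depth limits genes with few reads, such as the 48 higher and 57 lower genes under 10 reads.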

Other observations

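Several gene groups not described above were close to level between the Beagle libraries. Genes of cholesterol synthesis and uptake were higher at 13 of 20, with a median of 0.04 and no call. Cell-cycle genes were lower at 9 of 11 with a median of -0.13, and endothelial genes at 9 of 13 with a median of -0.15, both without a call. Fibroblast and matrix genes were higher at 9 of 13 with a median of 0.11; COL5A1, a fibrillar collagen chain, had 14.1 FPKM stressed and 7.44 FPKM unexposed (0.84), and POSTN, a matrix protein, had 7.84 FPKM stressed and 14.6 FPKM unexposed (-0.82).

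Chemokine and cytokine genes were higher at 11 of 13 with a median of 0.35. CXCL10, a chemokine induced by interferon, rose to 5.89 FPKM in the stressed library, against 2.08 FPKM in the unexposed one (1.16), from 102 and 35 reads. The Chinese Field Dog pair had 105 FPKM stressed and 9.71 FPKM unexposed. Lymphocyte markers summed to 9.01 FPKM in the stressed and 13.6 FPKM in the unexposed Beagle, over 7 measured genes. Of these, 3 were higher and 4 lower, with a median of -0.01. Their 1 call (14.3%, against 1.09% of all genes) was CD79B, named after its value was seen. It had 0.945 FPKM stressed and 5.3 FPKM unexposed (-1.7, from 11 and 60 reads). Clock genes were split at 7 higher and 10 lower with a median of -0.07, and the alpha-globin gene listed as HBA had 89.8 FPKM stressed and 85.6 FPKM unexposed (0.07).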
